A study of Sus scrofa with 16 samples.

Results

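The genes described here build the extracellular matrix of the heart: the interstitial network of collagens, elastic fibres, proteoglycans and matricellular proteins, the enzymes that process and crosslink it, and the basement membrane around muscle fibres and capillaries. A total of 60 genes were listed by these roles. They were measured where the array annotation gave the gene as the single symbol of a probe set, and the probe set with the highest mean over all arrays stood for the gene. By that rule 34 of the 60 genes were measured, out of 6765 genes with such a probe set on the array. The other 26, among them COL1A1, COL4A1, ELN, FMOD, CTGF, TGFBI, LAMA2 and HSPG2, were not analysed here. All 34 had a mean above background in both groups (4.99 log2, the highest value of 23 control probe sets without target), and 33 were above it on every array. The exception was TNC.

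RNA came from the left ventricle of 16 Yorkshire x Landrace swine aged 2 to 3 months, 3 weeks after surgery. The MI group (myocardial infarction) and the Sham group held 8 animals each, 4 females and 4 males by the labels, and the males were neutered. Each animal gave 1 array. The labels do not state where in the ventricle the tissue lay relative to the infarct, so a sample of scar and a sample of distant muscle cannot be told apart by label. In bulk tissue, fewer cells of a type and less RNA per cell cannot be told apart.

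After an infarct, cardiac fibroblasts are activated and lay down a provisional matrix rich in fibronectin and matricellular proteins, which fibrillar collagen then replaces. Collagen chains are hydroxylated and folded in the endoplasmic reticulum, assembled with small leucine-rich proteoglycans that set fibril diameter, and crosslinked outside the cell by lysyl oxidases. Basement membrane is a separate sheet, made of type IV collagen and laminin networks joined by nidogen and perlecan.

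The spike-in controls separated the arrays into set A (11 arrays) and set B (5 arrays: MI 7, MI 8, Sham 6, Sham 7 and Sham 8). The difference between poly-A and hybridisation controls ran from -2.73 to -1.59 log2 in set A and from -5.11 to -4.0 in set B, and the actin 3' minus 5' signal, a measure of RNA integrity, averaged 2.64 ± 0.29 (SD, n = 11) in set A and 1.42 ± 0.14 (SD, n = 5) in set B. MI 7 is labelled female, but the Y-linked gene EIF1AY read 9.51 in it, against 3.0 to 3.51 in the other 7 animals labelled female and 9.4 to 9.96 in the 8 labelled male. The sham animal numbered 3 (Sham 3) stood apart from the other 15 for many matrix genes, as described below. The heart origin of the tissue was clear in each library: cardiomyocyte genes read high in both groups, for example MYH7 at 14.52 ± 0.05 in MI and 14.53 ± 0.05 in Sham (SD, n = 8 each), and 0 of 9 such markers passed between the groups. Apart from the correlations of gene pairs, the tests were limma fits over 23999 probe sets, two-sided, with Benjamini-Hochberg adjustment, and a gene passed at an adjusted p under 0.05. Differences are MI minus Sham in log2 signal, averaged over the sexes unless stated otherwise.

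The first question was whether matrix genes differed between infarcted and sham hearts. None of the 34 members passed (0 of 34, where 10.5% of all probe sets passed), and 1 had an unadjusted p under 0.05, as did 23.6% of all probe sets. With 1 probe set per gene, as for the members, 279 of 6765 genes passed as higher and 237 as lower. By that count 1226 genes had an unadjusted p under 0.05. The member differences were small: 11 were positive and 23 negative, with a median of -0.07 against 0.00 over all genes and a range from -0.59 to 0.29. The MI and Sham animals overlapped for every member, while 2.96% of all probe sets, and 124 of 6765 genes, had groups that did not overlap. For 21 of the 34 members the 95% interval of the difference left out a 1.5-fold change in either direction, and for 32 it left out a 2-fold change. The exceptions to the latter were POSTN and COMP, whose intervals reached -1.24 and -1.06. With the array set as a block the count was 0, as it was for either set on its own. Of all 6765 genes, 345 passed as higher and 304 as lower in MI with the block. In set A alone 276 passed as higher and 240 as lower. In set B alone 0 of 6765 genes passed, so the member count of 0 there carries no information.

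**Figure D1:**
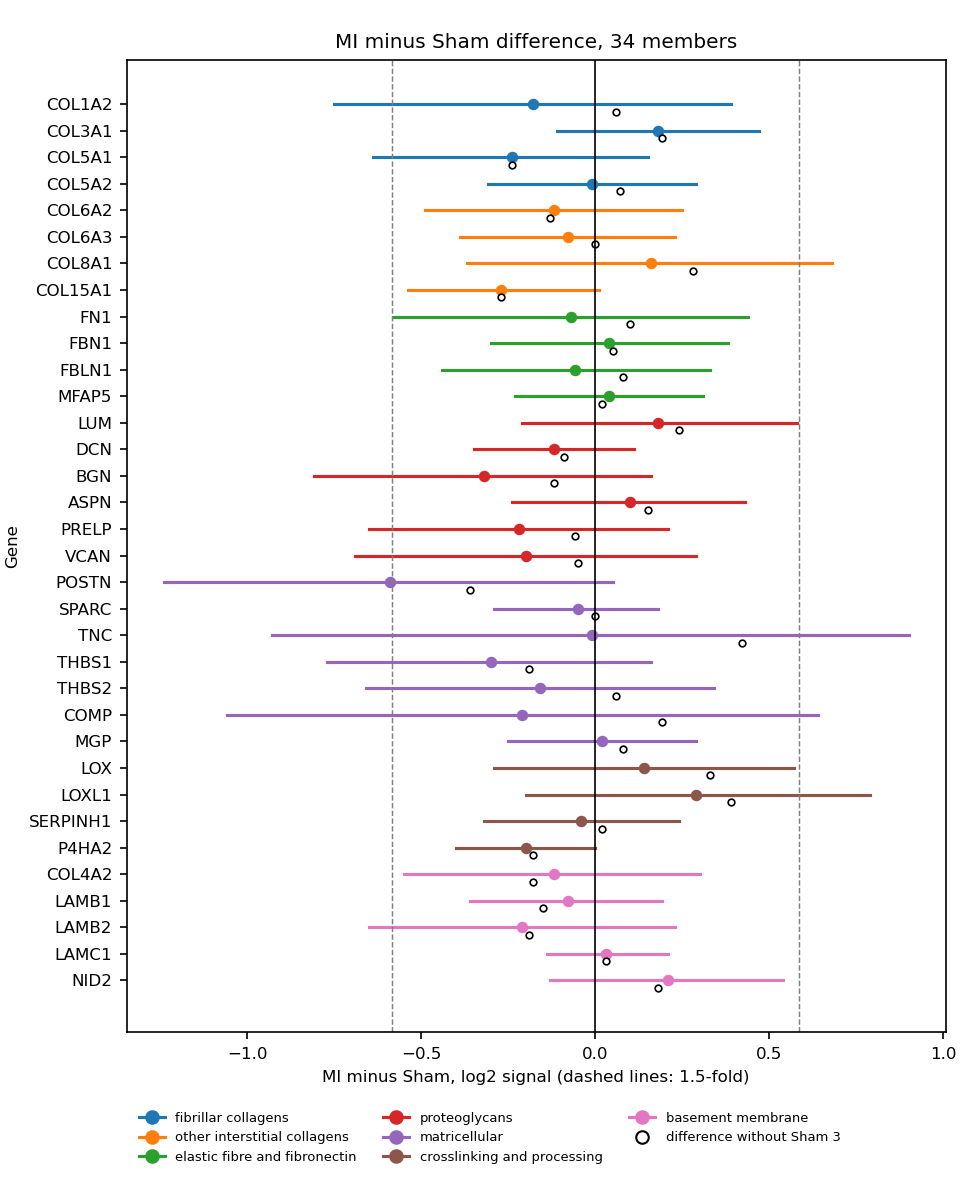
Difference between MI and Sham in log2 signal (horizontal axis) for each of the 34 measured matrix genes (vertical axis), by gene list; filled points are the limma estimate with its 95% interval over 8 against 8 animals, open points the estimate without Sham 3. Every interval crosses 0 except that of P4HA2, whose upper end rounds to 0.00, and the widest are those of TNC, COMP and POSTN, whose open points lie to the right of the filled ones.

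Among the fibrillar collagens, which form the load-bearing fibrils, 4 of 5 listed genes were measured. COL1A2, the second chain of type I collagen (chromosome 9, 74174484 to 74210407 in the pig assembly Sscrofa11.1), ranged from 8.56 to 9.52 with a median of 8.92 in MI and from 8.16 to 10.77 with a median of 9.05 in Sham. The MI animals lay inside the sham range, whose top value was Sham 3. The difference was -0.18 ± 0.27 (SE; adjusted p = 0.754 by limma). COL3A1, the single chain of type III collagen (chromosome 15, 93556914 to 93595678), ranged from 7.09 to 8.40 in MI (median 7.63) and from 7.22 to 7.88 in Sham (median 7.55). Its difference was 0.18 ± 0.13 (adjusted p = 0.473 by limma), and MI 1 and MI 8 were the animals above the highest sham value. COL5A1 and COL5A2 are chains of the type V collagen that starts fibrils. COL5A1 read 9.80 ± 0.39 in MI and 10.04 ± 0.45 in Sham (SD, n = 8 each), and differed by -0.24 ± 0.19 (adjusted p = 0.481 by limma). COL5A2 read 6.77 ± 0.29 in MI and 6.79 ± 0.34 in Sham (SD, n = 8 each), and differed by -0.01 ± 0.14 (adjusted p = 0.97 by limma). Both had their highest value in a sham animal, Sham 7 for COL5A1 and Sham 3 for COL5A2.

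The other interstitial collagens measured were COL6A2 and COL6A3, chains of the beaded type VI filaments around cells, COL8A1, a short-chain collagen of vessels and scars, and COL15A1, which links fibrils to the basement membrane zone. COL15A1 ranged from 10.76 to 11.53 in MI and from 10.98 to 11.96 in Sham, and 7 of 8 MI animals lay below the sham mean. Its difference was -0.27 ± 0.13 (adjusted p = 0.224 by limma), and the sham animal with the highest value was Sham 7, on a set B array. COL6A2 read 8.42 ± 0.35 in MI and 8.54 ± 0.45 in Sham (SD, n = 8 each), and differed by -0.12 ± 0.17 (adjusted p = 0.737 by limma). COL6A3 read 11.28 ± 0.28 in MI and 11.37 ± 0.35 in Sham (SD, n = 8 each), and differed by -0.08 ± 0.14 (adjusted p = 0.798 by limma). COL8A1 read 7.33 ± 0.39 in MI and 7.18 ± 0.63 in Sham (SD, n = 8 each), and differed by 0.16 ± 0.25 (adjusted p = 0.769 by limma). Each of these differences was smaller than the SD of its sham animals.

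Elastic fibre and fibronectin genes lay close to 0 throughout. FN1, the fibronectin of the provisional matrix, ranged from 10.35 to 11.61 in MI and from 10.22 to 12.24 in Sham, a difference of -0.07 ± 0.24 (adjusted p = 0.907 by limma). FBN1 is the fibrillin of microfibrils, FBLN1 a fibulin that binds fibronectin and elastin, and MFAP5 a microfibril glycoprotein. FBN1 read 11.58 ± 0.34 in MI and 11.54 ± 0.31 in Sham (SD, n = 8 each), and differed by 0.04 ± 0.16 (adjusted p = 0.919 by limma). FBLN1 read 8.35 ± 0.24 in MI and 8.41 ± 0.53 in Sham (SD, n = 8 each), and differed by -0.06 ± 0.18 (adjusted p = 0.897 by limma). MFAP5 read 11.82 ± 0.29 in MI and 11.78 ± 0.21 in Sham (SD, n = 8 each), and differed by 0.04 ± 0.13 (adjusted p = 0.894 by limma). The 3 differences were all smaller than their standard errors.

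Among the proteoglycans, 6 of 8 were measured and 0 passed. The small leucine-rich members are LUM and DCN (lumican and decorin, neighbours on chromosome 5, at 91748871 to 91756381 and 91678601 to 91713925), BGN (biglycan, on chromosome X), ASPN (asporin) and PRELP, and VCAN (versican) is a large proteoglycan of provisional matrix. LUM ranged from 10.72 to 11.85 in MI (median 11.47) and from 10.79 to 11.74 in Sham (median 11.09), a difference of 0.18 ± 0.18 (adjusted p = 0.612 by limma). BGN ranged from 8.93 to 10.01 in MI and from 9.03 to 11.15 in Sham, a difference of -0.32 ± 0.23 (adjusted p = 0.442 by limma). The highest BGN values belonged to Sham 3 and MI 5, and without Sham 3 the difference was -0.12. DCN read 12.55 ± 0.24 in MI and 12.67 ± 0.23 in Sham (SD, n = 8 each), and differed by -0.12 ± 0.11 (adjusted p = 0.575 by limma). PRELP read 8.99 ± 0.30 in MI and 9.21 ± 0.64 in Sham (SD, n = 8 each), and differed by -0.22 ± 0.20 (adjusted p = 0.574 by limma). Sham 3 was the highest animal for PRELP, and Sham 1 for DCN. VCAN read 7.94 ± 0.44 in MI and 8.14 ± 0.67 in Sham (SD, n = 8 each), and differed by -0.20 ± 0.23 (adjusted p = 0.666 by limma). ASPN read 11.26 ± 0.37 in MI and 11.17 ± 0.41 in Sham (SD, n = 8 each), and differed by 0.10 ± 0.16 (adjusted p = 0.775 by limma).

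Matricellular proteins sit in the matrix and act on cells rather than bear load, and 7 of 11 were measured. POSTN (periostin, a product of activated fibroblasts; chromosome 11, 13225183 to 13258973) had the largest negative difference of the 34 members. It ranged from 8.95 to 10.24 in MI with a median of 9.89, and from 9.14 to 11.95 in Sham with a median of 10.20. All 8 MI animals lay below the sham mean, yet the lowest sham animal, Sham 5 at 9.14, lay below 7 of the MI animals. The difference was -0.59 ± 0.31 (adjusted p = 0.257 by limma). It rested on single sham animals: without Sham 3 it was -0.36 (adjusted p = 0.426), and without Sham 5 it was -0.83 and passed (adjusted p = 0.0461). SPARC is a collagen-binding glycoprotein and MGP (matrix Gla protein) an inhibitor of calcification. SPARC read 13.26 ± 0.17 in MI and 13.32 ± 0.31 in Sham (SD, n = 8 each), and differed by -0.05 ± 0.11 (adjusted p = 0.833 by limma). MGP read 12.90 ± 0.22 in MI and 12.88 ± 0.29 in Sham (SD, n = 8 each), and differed by 0.02 ± 0.13 (adjusted p = 0.946 by limma). THBS1 and THBS2 (thrombospondins 1 and 2), TNC (tenascin C) and COMP (cartilage oligomeric matrix protein) complete the list. THBS1 read 8.73 ± 0.41 in MI and 9.04 ± 0.66 in Sham (SD, n = 8 each), and differed by -0.30 ± 0.22 (adjusted p = 0.451 by limma). THBS2 read 8.42 ± 0.22 in MI and 8.58 ± 0.74 in Sham (SD, n = 8 each), and differed by -0.16 ± 0.24 (adjusted p = 0.751 by limma). For all 7 measured matricellular genes the SD was larger in Sham than in MI, and the sham SD was largest for TNC and COMP. Without Sham 3 the sham SD was 0.41 for TNC and 0.67 for COMP. TNC read 5.50 ± 0.61 in MI and 5.51 ± 1.38 in Sham (SD, n = 8 each), and differed by -0.01 ± 0.43 (adjusted p = 0.992 by limma). COMP read 5.97 ± 0.35 in MI and 6.18 ± 1.44 in Sham (SD, n = 8 each), and differed by -0.21 ± 0.40 (adjusted p = 0.815 by limma).

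Of the processing and crosslinking genes, P4HA2, a subunit of the prolyl hydroxylase that stabilises the collagen helix, had the lowest p of the 34. It ranged from 8.67 to 9.13 in MI and from 8.72 to 9.34 in Sham, and every MI animal was under the mean of the sham animals. The difference was -0.20 ± 0.09 (unadjusted p = 0.0471, adjusted p = 0.203 by limma). It passed only with the array set as a block and Sham 6 left out. LOX, a lysyl oxidase, ranged from 7.41 to 8.21 in MI and from 7.32 to 8.98 in Sham (difference 0.14 ± 0.20), and without Sham 3 the difference was 0.33 ± 0.12 (adjusted p = 0.0935 by limma). LOXL1, a related oxidase of elastic fibres, had the largest positive difference, 0.29 ± 0.23 (adjusted p = 0.502 by limma), with MI 5 highest at 8.71 and MI 7 lowest at 6.69. SERPINH1 encodes the collagen chaperone HSP47. SERPINH1 read 9.68 ± 0.16 in MI and 9.72 ± 0.35 in Sham (SD, n = 8 each), and differed by -0.04 ± 0.13 (adjusted p = 0.908 by limma).

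Basement membrane genes were the least fully covered, with 5 of 14 measured. COL4A2 is a type IV collagen chain, LAMB1, LAMB2 and LAMC1 are laminin chains, and NID2 is a nidogen. COL4A2 read 11.73 ± 0.39 in MI and 11.85 ± 0.49 in Sham (SD, n = 8 each), and differed by -0.12 ± 0.20 (adjusted p = 0.772 by limma). LAMB1 read 10.17 ± 0.18 in MI and 10.25 ± 0.34 in Sham (SD, n = 8 each), and differed by -0.08 ± 0.13 (adjusted p = 0.765 by limma). LAMB2 read 10.36 ± 0.49 in MI and 10.56 ± 0.42 in Sham (SD, n = 8 each), and differed by -0.21 ± 0.21 (adjusted p = 0.613 by limma). The spread of COL4A2 and LAMB2 followed the array sets, as described further on. LAMC1 ranged from 11.63 to 11.80 in MI and from 11.23 to 11.88 in Sham, where Sham 6 was lowest, with a difference of 0.03 ± 0.08 (adjusted p = 0.849 by limma). NID2 ranged from 10.25 to 11.34 in MI and from 10.16 to 11.07 in Sham, a difference of 0.21 ± 0.16 (adjusted p = 0.484 by limma).

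A single sham animal set much of the spread in these genes. Sham 3 had the highest of the 16 signals for 17 of the 34 members, while it was highest for 5.6% of all genes. By role, Sham 3 was highest for 7 of 7 matricellular genes, 3 of 6 proteoglycans, 2 of 4 in each of the fibrillar, other interstitial and elastic groups, 1 of 4 processing genes and 0 of 5 basement membrane genes. Its median deviation from the gene mean was 1.77 log2 over the matricellular genes, 0.96 over the proteoglycans and -0.06 over the basement membrane genes.

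**Figure D2:**
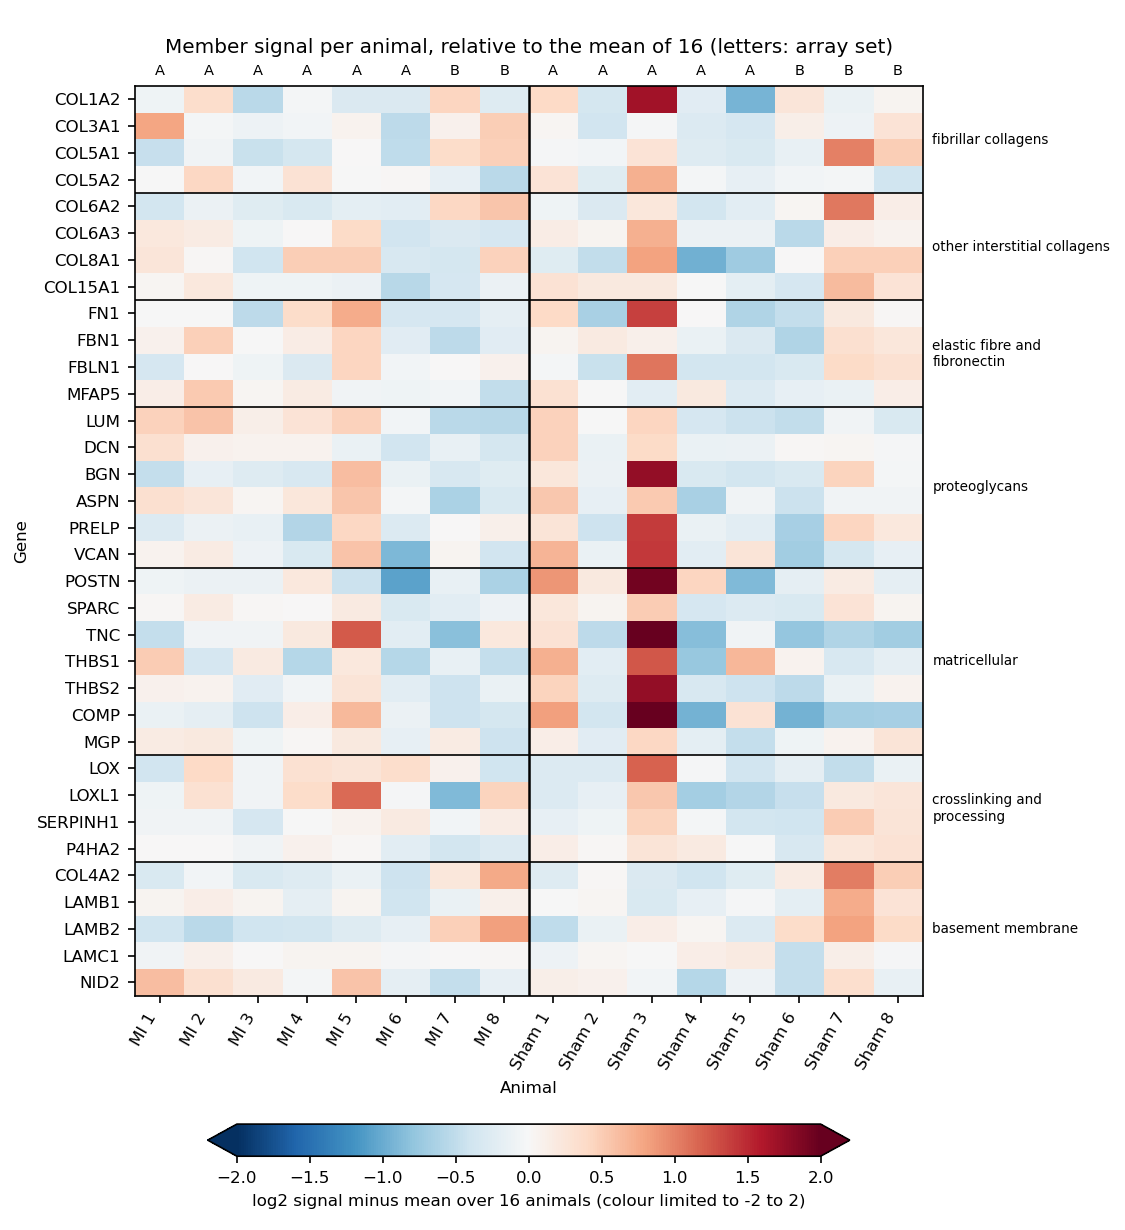
Signal of each of the 34 matrix genes (rows, by gene list) in each of 16 animals (columns; letters give the array set), as log2 signal minus the mean over animals, with the colour limited to -2 to 2. Sham 3 is the dark column, highest for 17 genes and for 0 of 5 basement membrane genes; the set B columns are higher for COL5A1, COL6A2, COL4A2 and LAMB2.

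COMP, which crosslinks collagen fibrils in tendon and cartilage, read 9.41 in Sham 3 (chromosome 2, 59061409 to 59068951). The next highest animal, Sham 1, read 6.90, so the lead was 2.51 log2 or 5.70-fold. The MI animals ranged from 5.66 to 6.72 and the other 7 sham animals from 5.13 to 6.90, so these overlapped. TNC, which is low in adult muscle and appears in remodelling tissue, read 8.80 in Sham 3 and 6.73 in the next, MI 5, a lead of 2.07 log2 or 4.20-fold. The remaining 14 animals lay between 4.66 and 5.79, close to background. THBS2 read 10.26 against 8.94 in the next animal, COL1A2 10.77 against 9.52, BGN 11.15 against 10.01 and POSTN 11.95 against 10.91. COL3A1 did not share the pattern, with 7.58 in Sham 3 near the middle of the range.

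Across the array, 12 genes were led by Sham 3 by at least 1 log2, and 6 of them were these members. The other 6 were HAPLN1, PTN, MRAP2, PTHLH, PRRX1 and AEBP1, chosen here by the size of that lead. Of these 6 members, COMP, COL1A2 and POSTN have a second probe set, in each case with a mean below background, so no further probe set bears on these leads. Of the 15 further probe sets above background, all of other members, Sham 3 was highest on those of THBS1 (9.56, a lead of 1.22 log2), VCAN (6.73), COL8A1, SPARC and on 1 of 3 of COL5A1. It had rank 3 of 16 on that of LOX and rank 12 on that of COL5A2, although it was highest on the main probe set of each.

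**Figure D3:**
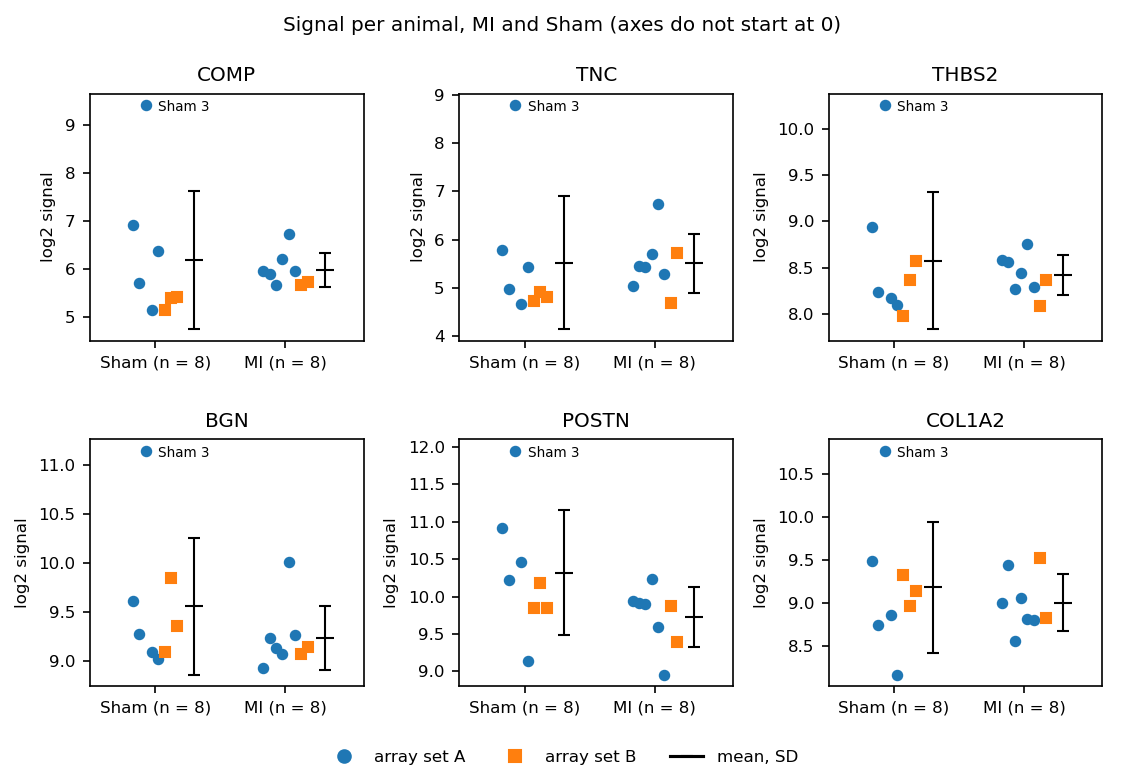
Log2 signal (vertical axis, not starting at 0) of COMP, TNC, THBS2, BGN, POSTN and COL1A2 in each animal by group, with marker shape and colour for the array set and a bar for the mean and SD of 8 animals. Sham 3 lies above the other 15 animals in each panel, by 1.04 log2 in POSTN and 2.51 log2 in COMP, and the remaining sham animals overlap the MI animals.

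Summed marker levels in Sham 3 lay mostly inside the range of the other animals. The summed signal of 6 fibroblast markers was 13.80 log2 in Sham 3 and from 13.26 to 13.92 in the others. Signals were summed on the linear scale, so the brightest markers, VIM and MFAP5, weighed most. Single fibroblast markers differed in Sham 3: TCF21 was the lowest of the 16 at 7.80, while Sham 7 alone read higher for VIM and THY1. PDGFRB, S100A4 and MFAP5 were at neither end of the range there. The sum of 9 cardiomyocyte markers was 17.20, within the range of the others (17.15 to 17.27), and that of 5 smooth muscle markers was 13.33 (others 13.14 to 14.08). The sum of 8 endothelial markers was 11.90, the lowest of the 16 (others 11.99 to 12.92). That of 2 atrial markers, MYL4 and NPPA, was 10.15, rank 2 of 16 (others 8.80 to 10.16). The macrophage, T cell and erythroid sums had rank 8, 11 and 15. The actin 3' minus 5' signal of Sham 3, 2.27, lay inside the range of set A. The part of these levels in the result was not tested. Without Sham 3, 0 of 34 members passed between MI and Sham (9.0% of all probe sets did). Of the differences, 20 were positive and 14 negative, with a median of 0.02, and 24 of 34 kept their sign. The largest moves in size were in TNC, from -0.01 to 0.42 (adjusted p = 0.278 by limma), and COMP, from -0.21 to 0.19 (adjusted p = 0.649 by limma). PRELP went from -0.22 to -0.06, VCAN from -0.20 to -0.05, THBS1 from -0.30 to -0.19, THBS2 from -0.16 to 0.06, COL1A2 from -0.18 to 0.06 and COL8A1 from 0.16 to 0.28. The SD was higher in Sham than in MI for 26 of 34 members and, without Sham 3, for 19 of 34, against 51.3% and 52.0% of all genes.

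The second question was whether the MI difference depended on sex. None of the 34 members passed the interaction test, in which 0.0% of all probe sets passed. Within females 6 differences were positive and 28 negative, with a median of -0.18, and within males 22 were positive and 12 negative, with a median of 0.11. Over all 6765 genes 3660 were positive and 3105 negative in females, and 3297 and 3468 in males, with medians of 0.02 and -0.01. None of the 34 passed within females (2.85% of all probe sets did) or within males (3.4% did). The proteoglycans were negative in 6 of 6 in females and positive in 5 of 6 in males, and the matricellular genes were negative in 7 of 7 in females and positive in 6 of 7 in males. Sham 3 is female, and without it 26 of 34 female differences were negative, with a median of -0.10.

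Unadjusted, 4 of 34 members had an interaction p under 0.05, as did 5.7% of all probe sets, and none held after adjustment. For TNC the male MI animals ranged from 5.29 to 6.73 and the male sham animals from 4.66 to 4.98. These did not overlap, but all 4 male sham values lay below the background of 4.99, and TNC was above it in 3 of 8 sham animals, so the sizes of its differences are not measured on the sham side. The female side overlapped: MI animals ranged from 4.67 to 5.72 and sham animals from 4.91 to 8.80. The fitted interaction, female minus male, was -2.01 (unadjusted p = 0.033, adjusted p = 0.794 by limma), and without Sham 3 it was -1.16 (unadjusted p = 0.0179, adjusted p = 0.889). For ASPN the male groups did not overlap either, at 11.17 to 11.77 in MI and 10.57 to 11.14 in Sham, and the interaction was -0.84 (unadjusted p = 0.0169, adjusted p = 0.794 by limma). COMP gave -1.99 (unadjusted p = 0.0246) and BGN -0.98 (unadjusted p = 0.0483), both at an adjusted p of 0.794 by limma. Without Sham 3 these were -1.20 (unadjusted p = 0.0102) and -0.57 (unadjusted p = 0.0742), and ASPN was -0.74 (unadjusted p = 0.0378). Groups did not overlap for 3 of 34 members in males (TNC, ASPN and LAMB2, the last lower in MI) and 0 of 34 in females, where 14.5% and 10.4% of all probe sets did not overlap. The male MI animals were all on set A arrays and 2 of 4 male sham animals on set B arrays. With the array set as a block the male differences were 0.74 for TNC, 0.35 for ASPN and -0.04 for LAMB2 (adjusted p = 0.636, 0.465 and 0.940 by limma). Without MI 7, whose label and EIF1AY signal disagree, COMP and ASPN had an unadjusted interaction p under 0.05 (0.0395 and 0.0388), and TNC was at 0.0627.

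Female and male animals did not differ for any member by the test (0 of 34, where 0.0583% of all probe sets passed, and 0 of 34 had an unadjusted p under 0.05, as did 3.1% of all probe sets). Over all 6765 genes, female minus male was positive for 2917 and negative for 3848, with a median of -0.02. The member differences leaned to higher values in females, with 29 of 34 positive and a median of 0.17 log2. The largest was COMP at 0.67 ± 0.40. Without Sham 3 the median was 0.08 with 29 positive, and without MI 7 it was 0.21 with 32 positive.

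Members were then compared between the array sets. In the fit with group, sex and set, 4 of 34 members were higher in set B (9.45% of all probe sets) and 0 of 34 were lower (8.2%). Of the 15 further member probe sets above background, 4 passed as lower in set B: those of THBS1 (-1.0), FBN1 (-0.57), COL5A2 (-0.34) and 1 of 3 of LAMC1 (-0.26). Both sets held MI and sham animals. COL4A2 ranged from 11.37 to 11.81 in set A and from 11.95 to 12.81 in set B, which did not overlap, and differed by 0.78 ± 0.14 or 1.72-fold (adjusted p = 0.00117 by limma). LAMB2 ranged from 9.92 to 10.60 and from 10.83 to 11.28, again without overlap, and differed by 0.84 ± 0.13 (adjusted p = 0.000624). These were the 2 of 34 members without overlap between sets, against 6.35% of all probe sets and 9.2% of all genes. COL6A2 differed by 0.71 ± 0.10 (adjusted p = 0.000387), its set B animals from 8.52 to 9.53 overlapping set A through Sham 3 at 8.70.

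COL5A1 differed by 0.65 ± 0.15 (adjusted p = 0.00873 by limma), and did not pass without Sham 7, its highest animal at 10.93. Its further probe sets did not agree on the set: the next brightest differed by 0.01 ± 0.17 (adjusted p = 0.982) and another by 0.50 ± 0.11 (adjusted p = 0.00674). LUM was lower in set B without passing, at -0.53 ± 0.18 (adjusted p = 0.0532), and passed when sex was left out of the model, when 16000 probe sets were tested, and without Sham 4, Sham 5 or Sham 8. In the basement membrane group the other members were less set dependent, at 0.23 for LAMB1, -0.10 for LAMC1 and -0.21 for NID2, none of which passed. The actin 3' minus 5' signal moved with the set, as given above, and so did some markers of other cells. Smooth muscle markers passed as higher in set B for 2 of 5, cardiomyocyte markers for 2 of 9 (TNNT2 and ACTC1) and endothelial markers for 2 of 8. The endothelial ones were VWF at 1.02 (adjusted p = 0.000438 by limma) and TIE1 at 0.72 (adjusted p = 0.00405). The lists did not move as a whole: endothelial markers were higher for 3 and lower for 5 (median -0.03). Cardiomyocyte markers were higher for 4 and lower for 5 (median -0.06), and smooth muscle markers were higher for 5 of 5. Of 5 macrophage markers, 1 was higher and 4 were lower, and 1 passed as lower. The summed endothelial signal ranged from 11.90 to 12.80 in set A and from 12.05 to 12.92 in set B. Their part in these differences was not tested.

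**Figure D4:**
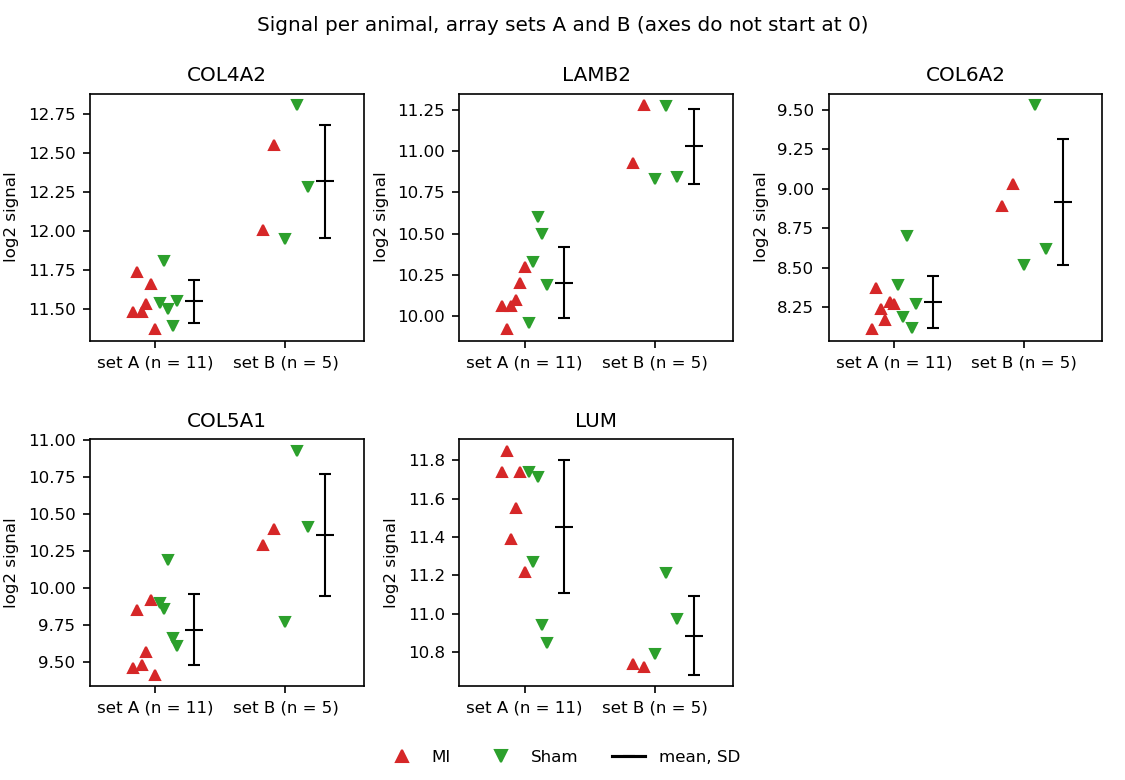
Log2 signal (vertical axis, not starting at 0) of COL4A2, LAMB2, COL6A2, COL5A1 and LUM in set A (11 arrays) and set B (5 arrays), with marker shape and colour for MI and Sham and a bar for the mean and SD. COL4A2 and LAMB2 do not overlap between sets, and MI and Sham animals mix within each set.

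The last question was how far the members varied together across animals. The median Pearson r over the 561 pairs of members was 0.37, with 82.4% of pairs positive, against a median of 0.01 and 50.5% positive over all pairs of genes. All points share the same 16 RNA samples and their normalisation, so these medians are a description. Without Sham 3 the member median was 0.30, and within set A it was 0.48 (0.35 without Sham 3). After group, sex and set were removed it was 0.43 (0.40 without Sham 3).

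The lists differed in how much of this rested on Sham 3. Matricellular genes had the highest median r, 0.64 over 21 pairs, which was 0.38 without Sham 3. Proteoglycans had 0.62 over 15 pairs and 0.49 without it. The elastic and fibronectin genes were at 0.42 and 0.47, and the other interstitial collagens at 0.41 and 0.33. Fibrillar collagens had the lowest median of the lists, 0.20 over 6 pairs and 0.25 without Sham 3. Basement membrane genes were at 0.26 and 0.27, with pairs from -0.42 to 0.83, and at 0.50 without Sham 3 once group, sex and set were removed.

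**Figure D5:**
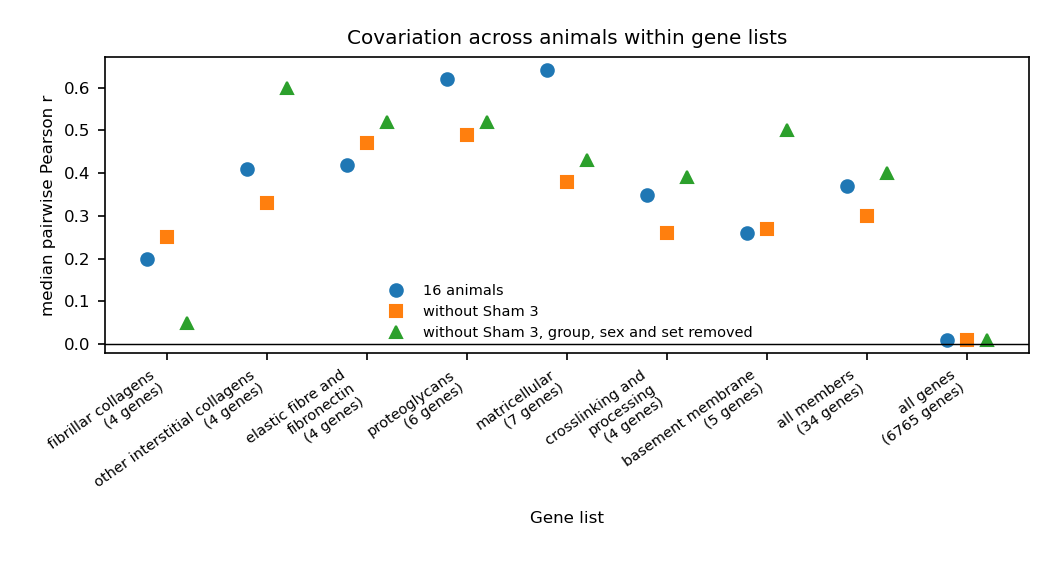
Median pairwise Pearson r across animals (vertical axis) within each gene list (horizontal axis, number of genes in brackets), over 16 animals (circles), without Sham 3 (squares) and without Sham 3 after removal of group, sex and array set (triangles). Each list lies above the value of 0.01 over all genes, and the matricellular list falls from 0.64 to 0.38 without Sham 3.

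Single pairs gave a more uneven picture. Of 9 pairs tested, 1 had a raw p under 0.05 for Pearson's r, and 0 held after adjustment over the 9. LUM and DCN had r = 0.65 (permutation p = 0.00602, adjusted 0.0542) and rho = 0.69 (permutation p = 0.00381, adjusted 0.0343). Their r was 0.61 without the 2 animals farthest from the LUM median, 0.64 in set A, 0.69 in MI and 0.85 in Sham. COL1A2 and COL3A1, whose products are found in the same fibrils, had r = 0.19 (permutation p = 0.449, adjusted 0.603), which was 0.34 without Sham 3, and rho = 0.53 (permutation p = 0.0374, adjusted 0.169). Without Sham 3 and Sham 5, the animals farthest from the COL1A2 median, r was 0.22.

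The pairs of type V and of type VI collagen chains changed sign within set A. The laminin chains LAMB1 and LAMC1 kept theirs, with r = 0.10 within set A. COL5A1 and COL5A2 had r = -0.21 over 16 animals and 0.57 within set A, and 0.21 within set A without Sham 3. COL6A2 and COL6A3 had r = -0.04 over 16 animals and 0.65 within set A, and 0.15 within set A without Sham 3. COL3A1 gave r of 0.19 with FN1, 0.04 with POSTN, 0.19 with SPARC and 0.30 with COL4A2, and LAMB1 with LAMC1 gave 0.29, each with an adjusted p of at least 0.603. Further pairs were picked after their values were seen and carry no p. COMP and TNC had r = 0.95, and 0.81 without Sham 3. COMP and POSTN had r = 0.64, and 0.00 without Sham 3. COL4A2 and LAMB2 had r = 0.83 over all animals and -0.29 within set A.

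The genes whose signal followed COL3A1 most closely over the 16 animals held 0 members among the top 10. They were led by KIAA1191 (r = 0.80), DEPDC7 (0.80) and FCN2 (0.77). The same list for POSTN, an anchor chosen after values were seen, held 3 members, COL1A2 (0.78), THBS2 (0.75) and DCN (0.74), behind C1QTNF3 and PTHLH (0.82 each). Without Sham 3 it held 1 member.

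Enzymes, inhibitors and receptors that act on the matrix were taken as separate lists. Of 16 measured turnover genes, 3 rose and 1 fell, beside the 10.5% of all probe sets that passed in either direction. MMP14, a membrane collagenase that activates MMP2, read from 6.59 to 7.53 in MI and from 5.26 to 6.12 in Sham, without overlap, and rose by 1.13 ± 0.14 (adjusted p = 0.00014 by limma). MMP9, a gelatinase, rose by 0.54 ± 0.08 (adjusted p = 0.000569 by limma), from a sham range of 4.54 to 4.99 to 5.15 to 5.49. It was above background on 8 of 8 MI arrays and 1 of 8 sham arrays, so the size of its rise is not measured on the sham side. MMP13 and TIMP4 also passed, at 0.43 and -0.29, but both were below background on all 16 arrays. MMP2 and the inhibitors TIMP1, TIMP2 and TIMP3 did not pass, at -0.34, -0.20, 0.06 and -0.32.

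Of 12 measured matrix receptors, 2 rose and 0 fell, again beside 10.5% of all probe sets. ITGAV, the integrin chain that binds fibronectin and periostin, rose by 0.38 ± 0.10 (adjusted p = 0.0226 by limma), from 8.57 ± 0.18 in Sham to 8.95 ± 0.25 in MI (SD, n = 8 each). SDC4, a syndecan of focal adhesions, rose by 0.25 ± 0.08 (adjusted p = 0.0462), which was 0.0781 without Sham 3. Of 8 measured genes of the TGF-beta pathway, which drives matrix synthesis in fibroblasts, 0 passed. TGFB1 was at -0.44 ± 0.17 (adjusted p = 0.117 by limma), and passed with the array set as a block (adjusted p = 0.0232). SMAD3 was at -0.45 ± 0.16 (adjusted p = 0.102). None of 6 fibroblast markers, of which MFAP5 is also a member, passed. Some markers of blood cells passed, beside the 10.5% of all probe sets that did. Of 5 macrophage markers 1 rose (CD14, 0.76, adjusted p = 0.00314 by limma). The difference was positive for 5 of 5, but in set B alone 1 was positive and 4 were negative. Among 4 erythroid markers 2 rose (HBM, 1.11, and AHSP, 0.83). Among 6 T cell markers 2 rose (CD3D and CD8B) and 1 fell (CD4, below background on all arrays). The summed macrophage signal ranged from 10.71 to 11.71 in MI and from 10.93 to 11.29 in Sham. The summed T cell signal ranged from 8.01 to 8.89 in MI and from 8.21 to 8.99 in Sham. The part of these cells in the turnover and receptor differences was not tested.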

How the data were processed

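Total RNA of 16 swine left ventricles was measured on Affymetrix porcine arrays, 1 per animal. The deposited values were taken as log2 signals because they ran from 2.87 to 14.92 with equal array medians of 6.24, and were used unchanged. How the authors normalised them is not given in the sources used here, nor is their software. Of 24123 probe sets, 124 controls were left out, and 23999 were tested in limma 3.58.1 (R 4.3.3) with 1 mean for each cell of group and sex (12 residual degrees of freedom). In data simulated for MI minus Sham over 23999 probe sets, the fit recovered 69 of 100 changes of 0.5 log2 and 92 of 100 of 1 log2. The changed probe sets were drawn from the whole array. The median SE of the difference was 0.18 over the members and 0.10 over all genes. These rates therefore do not give the recovery for members. Array sets were rebuilt from the gap of 1.27 log2 in the spike-in controls. Correlations were tested by 100000 permutations. Positions came from RefSeq (Sscrofa11.1), matched by Entrez identifier for 34 of 34 members.

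The members, the lists of turnover, receptor, TGF-beta and marker genes and the tests were chosen with earlier results of these data known. Every measured member was described, with full values for the 4 lowest p of each list and its highest mean. Genes outside the lists were named by the size of the Sham 3 lead or as the closest correlates of COL3A1 or POSTN. POSTN was chosen as an anchor after values were seen. EIF1AY was named as a check of the sex labels. Of 10 pairs listed first, 1 had both genes measured, and 8 were added from the measured genes. Precision is limited by how many animals there were and, for dim genes such as TNC, by signal over background. Nothing states that animals with the same number are related, and same-numbered animals did not deviate together in every pair (r from -0.216 to 0.504), so numbers were not taken as pairs.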

Additional observations from a re-analysis of the deposited data

Results flagged for a closer look

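Within groups of 8, the highest or lowest animal lay far from the nearest other, relative to the range of its group, in 8 of 68 groups tested (34 genes in MI and in Sham). For independent values, chance flags about 5% of groups. These 68 groups share the same 16 animals and the members covary, so the count was not tested against that share. The like share over all genes is not given. In 5 of the 8 flagged groups the animal was Sham 3: BGN at 11.15 (next 9.85), TNC at 8.80 (next 5.79), THBS2 at 10.26 (next 8.94), COMP at 9.41 (next 6.90) and LOX at 8.98 (next 7.79). The others were BGN in MI 5 at 10.01 (next 9.27), COL6A2 in Sham 7 at 9.53 (next 8.70) and LAMC1 in Sham 6, lowest at 11.23 (next 11.60). Sham 6 and Sham 7 were on set B arrays. The second probe set of COL1A2, which the member values did not use, was higher in MI by 0.32 log2 (adjusted p = 0.0407 by limma). Its mean of 3.93 lay below background, and its sign was opposite to that of the brighter probe set.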

How the results depend on the processing

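The count of members passing between MI and Sham was 0 under every alternative run that did not leave out single animals in turn. It was 0 to 1 when animals were left out in turn: POSTN passed without Sham 5 with or without the array set as a block (count 1 each), and P4HA2 passed without Sham 6 with the set as a block (count 1). The interaction and the sex comparison stayed at 0 under each alternative run, and the set comparison gave 3 to 5. With the replicate block (animal number as a block) the counts for MI minus Sham, interaction and sex were 0, and the median difference over members was -0.07. No member passed in any of the 442 single values with all animals or whole sets, and 1 of 544 passed with 1 animal out and no set block. With set B alone 0 of 6765 genes passed, so no member could pass there.

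The fit of set B alone left sex out, so its differences are not averaged over the sexes. Set B held 2 MI animals, both labelled female, and 1 female and 2 male sham animals, so group and sex are mixed there. Small differences changed sign. With set B alone they were 0.03 for COL1A2, 0.07 for COL6A2, -0.27 for COL8A1, -0.35 for FBN1, -0.21 for MFAP5, -0.26 for LUM, -0.27 for ASPN, 0.06 for PRELP, 0.24 for VCAN, 0.38 for TNC, 0.38 for COMP, -0.20 for MGP, -0.21 for LOXL1, 0.13 for LAMB2 and -0.22 for NID2. With set A alone they were 0.07 for COL5A2, 0.01 for FBLN1, 0.00 for DCN, 0.03 for SPARC, 0.07 for LAMB1 and -0.04 for LAMC1. With the mean over probe sets they were 0.07 for COL1A2, 0.12 for COL5A2, 0.03 for FN1 and 0.02 for LAMB1. With array weights they were 0.02 for COL5A2, 0.01 for SPARC and 0.02 for LAMB1. Without MI 7 and with the set as a block they were -0.01 for MFAP5, -0.01 for MGP, 0.02 for SERPINH1, 0.05 for COL4A2 and 0.01 for LAMB1. The cause was not tested.

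With each animal left out in turn, 16 members changed sign at least once. The ranges were -0.38 to 0.06 for COL1A2, -0.10 to 0.07 for COL5A2, -0.20 to 0.01 for COL6A2, -0.15 to 0.00 for COL6A3, -0.22 to 0.10 for FN1, -0.05 to 0.12 for FBN1, -0.16 to 0.08 for FBLN1 and -0.04 to 0.13 for MFAP5. They were -0.23 to 0.42 for TNC, -0.30 to 0.06 for THBS2, -0.48 to 0.19 for COMP, -0.06 to 0.10 for MGP, -0.12 to 0.03 for SERPINH1, -0.23 to 0.04 for COL4A2, -0.15 to 0.02 for LAMB1 and -0.03 to 0.07 for LAMC1. COL1A2, COL6A3, THBS2 and COMP changed sign only without Sham 3, and COL6A2, COL4A2 and LAMB1 only without Sham 7.

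Correlations that changed sign were COL5A1 with COL5A2 (0.12 for residuals, 0.57 in set A), COL6A2 with COL6A3 (0.42 for residuals, 0.01 without the 2 farthest animals, 0.65 in set A), COL3A1 with POSTN (-0.07 by Spearman), COL3A1 with COL4A2 (-0.06 for residuals, -0.02 in set A), COMP with POSTN (-0.46 without the 2 farthest animals) and COL4A2 with LAMB2 (-0.29 in set A). Correlations in set B, with 5 animals, were not computed.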

Other observations

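Without Sham 3, pairs of members with the strongest covariation, picked after their values were seen and given with no p, fell into groups that crossed the lists. COL4A2 went with COL5A1 (r = 0.94) and COL6A2 (0.93), and COL5A1 with COL6A2 (0.91). COL6A3 went with FBN1 (r = 0.88), and LUM with ASPN (0.88). LUM and LAMB2 ran against each other (r = -0.74). The first 3 genes and LAMB2 were those higher in array set B, and LUM was lower there. The part of the array set in these correlations was not tested.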
